A study of Mus musculus with 43 samples.

Results

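The regions described here are sequence intervals recovered with the RNA helicase DDX18 that carry the annotation of a protein-coding gene and lie in an exon, a 5' UTR, a 3' UTR, a promoter-TSS or a TTS, the last pair being HOMER's names for the start and the end of a gene. They were taken by annotation alone from 2 CLIP and 2 TAP libraries, leaving out any region whose detailed annotation named a ribosomal, small nuclear, small cytoplasmic, signal recognition particle, transfer or other repeat RNA. The rule gave 1015 of 3195 regions: 322 of 880 in CLIP library 1, 345 of 939 in CLIP library 2, 160 of 635 in TAP library 1 and 188 of 741 in TAP library 2. No region of these classes was lost to the repeat names.

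All 4 libraries came from mouse embryonic stem cells (ESCs) that carry a FLAG- and biotin-tagged DDX18, of strain 129S1/SVImJ, grown in serum with LIF, the cytokine that keeps them undifferentiated. CLIP crosslinks protein to RNA with ultraviolet light and sequences what is purified with the protein; TAP shares most steps but uses a tandem purification and no gel separation, and in both the nuclei were prepared after crosslinking. No CLIP or TAP library of cells without the tag was analysed here, so no value below is set against a background of the purification. The RNA-seq groups used were ESCs with a DDX18 knockdown (KD) and their controls (CJ9 ESC line), EZH2 KO ESCs with DDX18 KD and EZH2 KO controls, p53 KO ESCs with DDX18 KD and p53 KO controls (2 libraries each), and 3 libraries of CJ9 ESCs given 0 ng/ml of actinomycin D (ActD), called untreated here. All were of the same strain in serum with LIF, and both arms of each KO comparison carry the knockout. The labels give the KD without the agent used, the KO lines without the number of clones, and do not state that replicates were separate cultures, so p-values measure only the spread between these libraries.

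DDX18 is a DEAD-box helicase, a family of ATP-dependent enzymes that remodel RNA and RNA-protein complexes, and is known as a nucleolar factor in the making of the large ribosomal subunit. Ribosome biogenesis works mainly on pre-ribosomal RNA with the help of small nucleolar RNAs, and messenger RNA passes through the nucleus beside it. Canonical histone mRNAs, which encode the bulk histones of replicating chromatin, are unusual mRNAs: they come from clustered intronless genes and end in a stem-loop in place of a poly(A) tail.

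The starts of 5 histone mRNAs, 1 from each family, are shown because a region overlapped the first 50 bases in all 4 libraries. Histone genes were also the group of protein-coding genes with most members found in all 4 libraries, 52 of 63. The H3c4 and H4c4 regions began at chr13:23575801 and chr13:23581601, so the bases printed before these positions lay under no region. Each is bases 21 to 50 counted from the RefSeq start, 5′ to 3′ on the gene's strand in build GRCm38.p6, with the first ATG in capitals. In order they lie at chr13:23738827-23738856, chr13:23751108-23751137, chr13:23571420-23571449, chr13:23575783-23575812 and chr13:23581588-23581617, all on the + strand.
H1f2: tcctgacttccagagactcatcATGtctga
H2ac4: cctttactgatacttaaacgcatacATGtc
H2bc8: gcttgtttctaccATGcccgagcctgcgaa
H3c4: cttctctctttttcttatcATGgctcgtac
H4c4: cctagtttgctaacATGtctggacgcggga

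The start of Rack1, a scaffold protein of the small ribosomal subunit, is set beside them because its mRNA is of the class known for a 5' terminal run of pyrimidines. It is bases 1 to 30 at chr11:48800360-48800389 (+ strand), with the opening C and the C or T bases after it in capitals. A region overlapped the first 50 bases of Rack1 in all 4 libraries.
Rack1: CTTTTTCTCCacagggtcgtggtggcagcc

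A start that opens with C and at least 4 more C or T bases was held by 12 of the 216 genes with such regions that have a start in the RefSeq table (5.56%), and by 673 of all 27025 starts (2.49%). Only the given strand was searched, and a match describes the letters at the start and no site. The 12 included Rpl14, Rplp2, Rps6, Rps10 and Rps18, which encode ribosomal proteins, but a region overlapped the first 50 bases in only 3 of the 12, H2ac4, Rack1 and Utf1. Over all genes, 42 had a region over the first 50 bases, 32 of them histone genes, and 12 of the 42 had one there in all 4 libraries.

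Exon and gene-end regions made up 36.6% of CLIP library 1 (exact Clopper-Pearson 95% interval 33.4 to 39.9%), 36.7% of CLIP library 2 (33.7 to 39.9%), 25.2% of TAP library 1 (21.9 to 28.8%) and 25.4% of TAP library 2 (22.3 to 28.7%). Both CLIP shares thus lay above both TAP shares, although 2 libraries against 2 cannot reach an exact permutation p below 0.333. The intervals cover counting error only.

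These regions carried little of the signal. Each region has a score, and score times the number of 100-base bins was whole, within the rounding of the deposited score, for 3162 of the 3195 regions (99%), so the score is read here as a mean count per bin, not scaled to depth. Summed in that way, exon and gene-end regions held 0.513, 0.524, 0.432 and 0.468% of the signal of all regions in CLIP 1, CLIP 2, TAP 1 and TAP 2. Without the regions of Lars2 and of small RNA genes, described next, the shares were 0.0733, 0.0768, 0.0476 and 0.0637%. Their median score was 17, 17, 13 and 12.5, against 28.3, 31, 33 and 29 for all other regions of the same libraries, and it was lower in 4 of 4 libraries (mean difference -1.04 on the log2 scale, SD 0.29, exact sign-flip p = 0.125, the smallest that 4 libraries allow). A score under 20 was held by 62.1, 58.6, 86.2 and 83.5% of them, so most single values are small counts.

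Among exon and gene-end regions, the highest score in each library belonged to 1 region of Lars2, which encodes the mitochondrial leucyl-tRNA synthetase. It lies in the 3' UTR at chr9:123461801-123462200 (mm10, + strand) with scores of 15642, 16599, 5898 and 5984 in CLIP 1, CLIP 2, TAP 1 and TAP 2. That region alone was 71.5, 70.6, 71 and 66.2% of the summed score of the exon and gene-end regions. Of the other regions, 47, 44, 48 and 49 scored higher in the same libraries. The deposited annotation names it after the nearest gene start, Limd1. The Lars2 level in untreated ESCs was 3819, 4452 and 4644 FPKM (fragments per kilobase of transcript, scaled to library size). It was the fourth highest mean of the genes tested, after Yam1, Gm42418 and Gm26917. Whether the reads of this region and this level come from Lars2 mRNA was not tested.

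Several of the next highest regions covered small RNA genes. A region named after Rps29, a ribosomal protein gene, covered Rn7s1, the RNA of the signal recognition particle, with scores of 2378, 2580, 958 and 1070. A region named after Gtf3c6, a subunit of a polymerase III factor, covered Rnu3a, the U3 small nucleolar RNA of pre-rRNA processing, with 818, 1023, 535 and 756. Snord118, the U8 small nucleolar RNA, had 95, 136, 85 and 273 under the name Tmem107, and Gm22513, a small nuclear RNA gene at the start of Eapp, had 65, 82, 65 and 89. In all, 49 regions over 13 small RNA genes passed the annotation rule, 11 of them in all 4 libraries.

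The name of the nearest gene start was a different gene from the one under the region for 259 of 951 regions (27.2%) that overlapped a protein-coding gene and no small RNA gene. All 54 Myh9 regions were named Apol8, 28 of 32 Actn4 regions were named Capn12 and all 12 Sptan1 regions were named Wdr34. The class names also described neighbours: 136 of the 170 promoter-TSS regions (80%) and 48 of the 52 TTS regions (92.3%) referred to the start or end of another gene's transcript than the one under them, and 109 and 27 of these lay on histone genes. The regions themselves lay fully inside a gene in 903 of 951 cases (95%). Where 1 gene lay under a region and the strand was known, 857 regions were on the gene's strand and 3, on Ftl1, Apoe and Pkm, were not (99.7% sense). The strand of the gene was not assigned for 81 regions, and these included Actb, with 19 regions on the - strand. Another 4, 1 per library, were on the + strand near the 3' end, at scores of 13.5, 24, 14 and 8.25. The exon numbers of Actb fall as the coordinate rises, which places the gene on the - strand. These 4 regions thus lay opposite to Actb and are not among the 3 counted above. Below, a region is given to the gene it overlaps.

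Those genes numbered 260. A region was found in all 4 libraries for 92 of them, in 3 for 33, in 2 for 64 and in 1 for 71. Histone genes supplied 237 regions over 63 genes, cytoskeletal genes 220 over 21, ribosomal protein genes 69 over 20, translation factors 57 over 17, pluripotency and ESC genes 49 over 16, chaperones 45 over 6, splicing and hnRNP factors 37 over 13 and factors of ribosome biogenesis 11 over 4. The remaining protein-coding genes had 222 regions over 99 genes, of which 9 recurred in all 4 libraries.

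**Figure D1:**
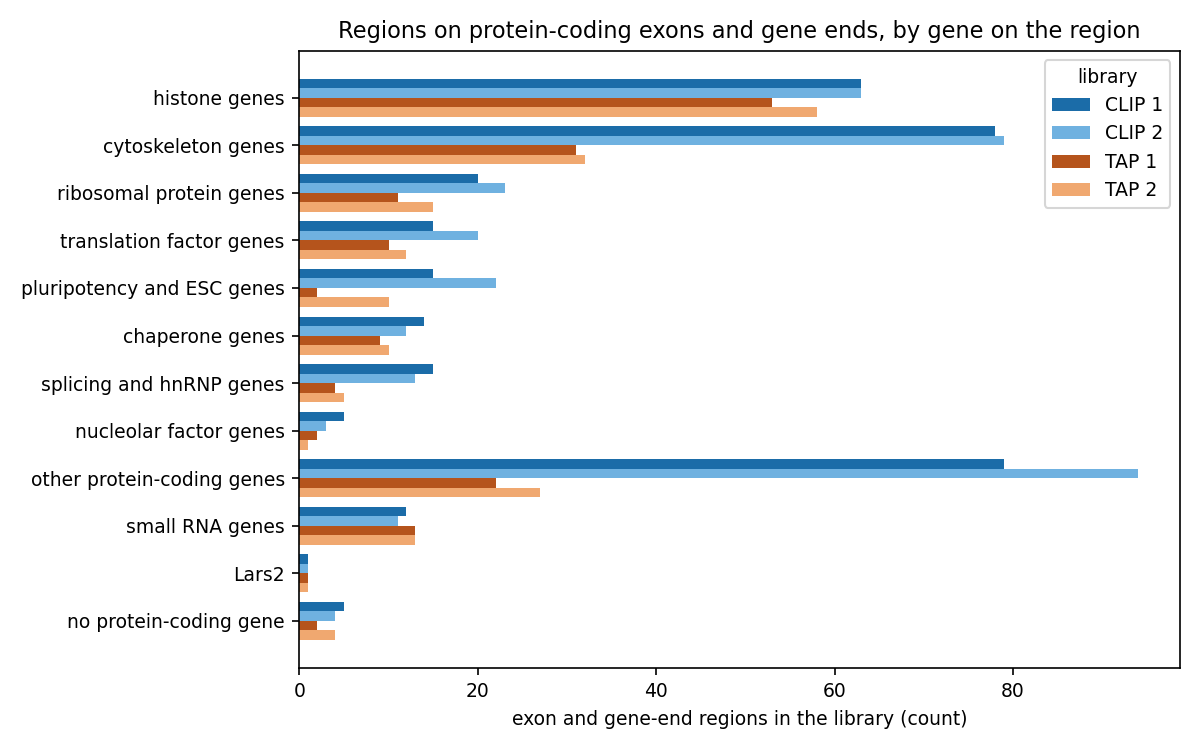
Number of exon and gene-end regions per gene group (vertical) in each library, CLIP and TAP (horizontal, count). Histone genes had 63 and 63 regions in the CLIP libraries and 53 and 58 in the TAP libraries, and cytoskeletal genes 78 and 79 in CLIP and 31 and 32 in TAP.

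Among the groups of protein-coding genes, histone genes were most often found again, although near-identical copies are not independent of each other. Of 67 canonical histone genes in RefSeq, 62 had a region (92.5%), 51 in all 4 libraries, 6 in 3 and 5 in 2. The genes without one were H1f6, H2ac1, H2bc21, H2bu2 and H4c14. Chromosome 13, which holds the large histone cluster, carried 197 of the 233 regions and chromosome 3 carried 31. Among 11 other histone genes looked up, mostly variants made outside replication, H2ax was the one with a region, in all 4 libraries with scores of 21.5, 25.3, 11.3 and 11.8. H2az1, H2az2, H3f3a, H3f3b and H1f0 had none.

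The families differed in score, and the linker family H1 lay within the range of the core families in each library. H2A genes had a median best score of 33.7, 34.3, 15.3 and 16.5 in CLIP 1, CLIP 2, TAP 1 and TAP 2, and H2B genes 34.3, 33.2, 13.3 and 13.3. H1 genes had 28.3, 21.4, 12.4 and 12.4. H3 genes had 24, 21.9, 14 and 11, and H4 genes 18.2, 20.2, 11.3 and 10.8. The H4 median was lowest in each library. Of 12 H4 genes with a region, 6 had one in all 4 libraries. It was 16 of 17 for H2A, 15 of 16 for H2B, 10 of 12 for H3 and 4 of 5 for H1. These medians are a description with no test, since copies within a family are near identical, and no source used here says how reads matching several copies were assigned.

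Among single histone genes, H2ac20 had 68, 39.5, 16 and 20 and H2ac4 had 41, 52.7, 16.7 and 22 in CLIP 1, CLIP 2, TAP 1 and TAP 2. H2ac18 had 48.7, 40.8, 21 and 27.7, and H2ac19, its near copy, 45.7, 47.3, 19 and 29. All 4 encode the core histone H2A, and both CLIP values exceeded both TAP values for each. Scores are not scaled to depth, and the summed score over all regions was 2.27 times as high in CLIP. CLIP 1 had the higher best score for 96 of the 99 genes compared with TAP 1. Among H2B genes H2bc9 had 52.7, 37, 12.7 and 18, and H2bc6 had 48.5, 46.5, 16.5 and 12.5. For H2ac7, H2ac8, H2ac10, H2ac21, H2bc4 and H2bc18 both CLIP values were above both TAP values too. Their best scores ran between 26.7 and 56 in CLIP and between 12 and 24 in TAP. The regions spanned the message rather than an end of it: their midpoint lay at a median 42.1% of the gene, they covered a median 56% of it, and none reached more than 100 bases beyond either end.

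**Figure D2:**
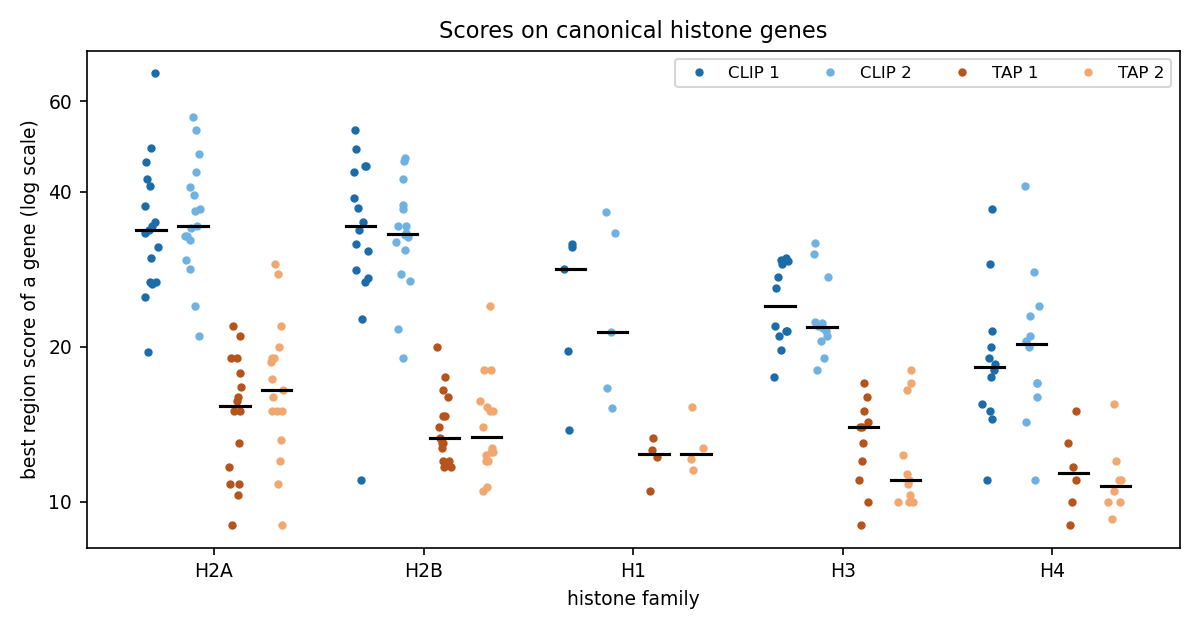
Best score of each canonical histone gene (vertical) by family and library (horizontal). Points are genes, black lines are medians, and the vertical axis is logarithmic. H2A and H2B genes reach 68 and 52.7 in CLIP, and H4 genes lie lowest, with medians of 18.2 and 20.2 in CLIP and 11.3 and 10.8 in TAP.

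Cytoskeletal genes had the most regions per gene, led by Myh9, the heavy chain of non-muscle myosin IIA. It had 54 regions, 18 and 19 in the CLIP libraries and 8 and 9 in the TAP libraries, over 22 of the 41 exons of its annotated transcript. Its best region, in exon 26 and starting at chr15:77771801, scored 170.5, 140.3, 85.5 and 78.5. These were the highest of any protein-coding gene after Lars2 in all 4 libraries. Of 35 distinct bins, 10 were found in all 4 libraries. No region lay in exons 1 to 8, which are in the first 51.4 kb of an 81.6 kb gene. Across the gene, 54 regions were exonic and 10 intronic.

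**Figure D3:**
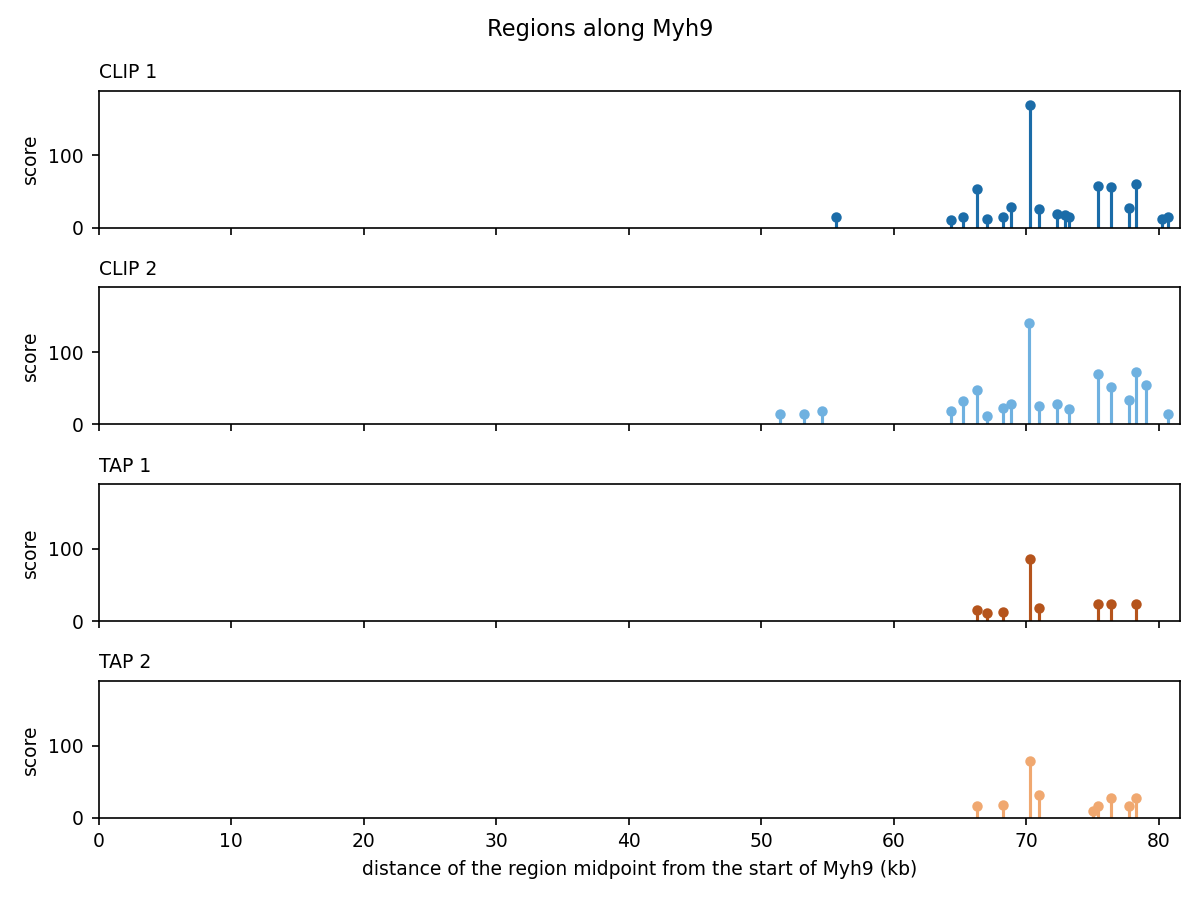
Score of each Myh9 region (vertical) against its distance from the gene's start in kb (horizontal), by library. Regions begin at 51.4 kb, and the highest, 170.5 in CLIP 1, is near 70 kb from the start.

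Actn4, an actin crosslinker, had 32 regions over 9 of 21 exons, with best scores of 26, 35, 22 and 20. Dst, a very large linker of cytoskeletal filaments, had 30 regions over 13 of 98 exons, with 21, 18, 14 and 10. Actb, the actin of all non-muscle cells, had 23 over both strands, with best scores on the - strand of 29, 32.5, 20 and 21. The regions of these genes were exonic nearly throughout, with 2 intronic regions each in Actn4 and Dst and none in Actb. Sptan1, a spectrin, had 12 regions with best scores of 29, 38, 13 and 12, and Tubb5, a beta-tubulin, had 11 with 21, 21, 12 and 12. Over all exonic regions 446 (66.1%) were in an inner exon, 71 in the last, 63 in the first and 95 in the only exon, 83 of the last kind on histone genes.

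Of genes for making proteins, ribosomal protein genes came first. Rplp2, an acidic stalk protein, had best scores of 43, 38, 15 and 15. Rplp0, the base of the same stalk, had 26.5, 43, 11 and 11.5. For both genes the CLIP values exceeded the TAP values, as they did for most genes found with both methods. Rps2, Rps14, Rps15, Rps18, Rpl8 and Rpl41 also had regions in all 4 libraries. Of 81 ribosomal protein genes tested in the RNA-seq, 20 had a region and 61 had none.

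Eef2, the elongation factor of translocation, had 11 regions with best scores of 30, 32.8, 16.5 and 15.5. Pabpc1, the cytoplasmic poly(A)-binding protein, had 15.2, 15, 9 and 18, Eif3a, a subunit of an initiation factor, 16, 25, 9 and 13, and Rack1 16.7, 22, 10 and 22. In Pabpc1 and Rack1 the values of CLIP and TAP overlapped. Of 66 genes listed as ribosome biogenesis or nucleolar factors, DDX18's own class, 4 had a region, and Noc2l, a nucleolar protein of the NOC family, was the one found in all 4 libraries, with 22, 25, 9 and 12. Mybbp1a, a nucleolar protein that binds Myb, had 14 and 16 in CLIP and 10 in TAP 1 alone.

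The chaperone Hsp90ab1, the constitutive cytosolic Hsp90, had 25 regions in 6 of 11 exons and none in an intron. Its best scores were 40.5, 34, 19.5 and 23.5, and 10 of its 16 bins were found in all 4 libraries. Hsp90aa1, the inducible form, had 28, 26.2, 11.5 and 24, and Hspa9, the mitochondrial Hsp70, 30, 26, 10 and 11. Among RNA-processing genes Hnrnpu, a nuclear RNA-binding scaffold, had 29.8, 28.5, 17.2 and 14.2 and Rsrp1, an arginine- and serine-rich protein, 31.7, 31.3, 13 and 13.5.

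Of 36 genes listed for pluripotency or ESCs, 16 had a region, but only Zfp42 and Zfp296, zinc-finger proteins of the undifferentiated state, had one in all 4 libraries. Of all 11809 genes tested in untreated ESCs, 254 had a region. The lists were drawn with earlier results of these data known, so counts here and for nucleolar factors are a description with no test. Zfp296 had 18, 21.7, 9 and 11 and Zfp42, also known as Rex1, had 12, 14, 9 and 9. Sox2, a core pluripotency factor, had 17.5 and 23.5 in CLIP and 18 in TAP 2, and Esrrb, an orphan receptor, 26 and 20 in CLIP and 11 in TAP 2. Neither had a region in TAP 1, where the whole group had 2 regions against 15, 22 and 10 in CLIP 1, CLIP 2 and TAP 2. Trim28, Jarid2, Dppa5a and Fgf4 likewise lacked a region in TAP 1 alone, as did 26 of all 33 genes found in 3 libraries.

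Among the other genes Ftl1, the iron-storing ferritin light chain, had best scores of 52, 42, 29 and 40. Ubl3, a membrane-anchored ubiquitin-like protein, had 1 region per library, in its 3' UTR, with 34.5, 48.5, 16 and 20. Pkm, a glycolytic pyruvate kinase, had 17.5, 22, 11 and 10, and Fn1, the matrix protein fibronectin, 15, 27, 10 and 11. Eno1 and Eno1b, near-identical enolase genes, had regions in 3 and 4 libraries, and their reads cannot be told apart with certainty.

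Between libraries of the same method most genes were shared. CLIP 1 and CLIP 2 shared 173 genes, 85.6% of the 202 in CLIP 1 and 76.9% of the 225 in CLIP 2, and TAP 1 and TAP 2 shared 95, 87.2% of 109 and 73.1% of 130. CLIP 1 shared 100 genes with TAP 1, 49.5% of its own and 91.7% of those of TAP 1. Both CLIP and neither TAP library held 49 genes, and both TAP and neither CLIP library held 2, Cad, an enzyme of pyrimidine synthesis, and Larp1, a binder of 5' terminal pyrimidine runs. Best scores in CLIP were 1.83 to 2.0 times those in TAP at the median of shared genes, beside a summed score over all regions that was 2.27 times as high in CLIP. The Spearman correlation of best scores across genes was 0.79 between the CLIP libraries (172 genes), 0.46 between the TAP libraries (94 genes) and 0.46 to 0.65 across methods, with genes not independent of each other.

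The class shares of both CLIP libraries lay on 1 side of both TAP libraries for 3 of 5 classes, but 2 libraries against 2 cannot go below p = 0.333 in an exact permutation test. Exons were 70.5 and 70.7% of regions in CLIP and 57.5 and 59.6% in TAP (12.1 percentage points higher in CLIP, exact two-sided permutation p = 0.333, 0.556 adjusted over 5 classes). Promoter-TSS regions were 18.3 and 17.4% in CLIP and 25.6 and 27.7% in TAP, with the same p. TTS regions were 5.28 and 5.51% in CLIP and 11.2 and 6.91% in TAP, also with the same p; this difference, -3.69 points, was smaller than the gap between the TAP libraries, at -1.52 without TAP 1 and -5.86 without TAP 2. The shares of 5' UTR (1.86 and 2.90% in CLIP, 1.88 and 1.06% in TAP) and 3' UTR regions (4.04 and 3.48% in CLIP, 3.75 and 4.79% in TAP) overlapped. By group, histone genes were 19.6 and 18.3% of regions in CLIP and 33.1 and 30.9% in TAP, and genes outside every list 24.5 and 27.2% in CLIP and 13.8 and 14.4% in TAP (exact permutation p = 0.333 for each).

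Most of these genes are expressed at high level. Over 3 libraries of untreated ESCs, the median FPKM of the 254 of the 256 matched genes that passed 1 FPKM was 75, 63.1 and 65.5, against 7.65, 7.23 and 7.18 over all 11809 genes tested. Leaving out histone genes, 194 genes had a median of 92.3, 90.6 and 92.6 FPKM. Of the 500 most abundant genes 94 had a region (18.8%), and of the 20 most abundant 9 did, among them Lars2, Eef1a1, Rplp1, Rpl41, Hsp90ab1 and Rpl8. The genes tested were not restricted to protein-coding ones, as the regions were. The 20 include mt-Rnr2, a mitochondrial ribosomal RNA. No gene outside the histones had a region in the 2 lowest deciles of level, and 130 did in the highest (11% of its 1180 genes).

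**Figure D4:**
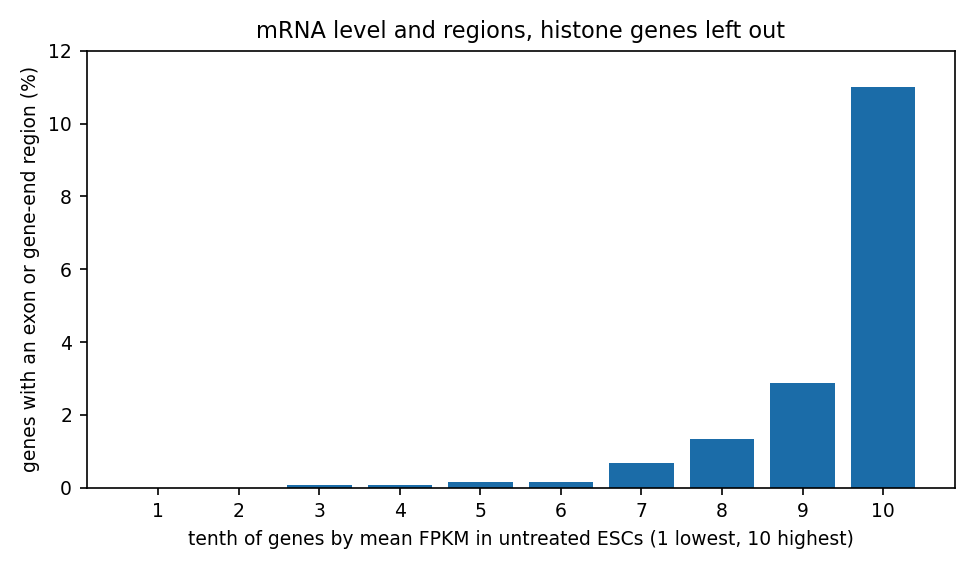
Share of genes with an exon or gene-end region (vertical, %) by decile of mean FPKM in untreated ESCs (horizontal, lowest to highest), histone genes left out. The share is 0 in the 2 lowest deciles, 2.88% in the ninth and 11% in the highest.

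Some of the most abundant genes had no region. Rps12, with a mean of 2641 FPKM, and Rps24, which both encode ribosomal proteins, were among these. The median level of ribosomal protein genes was 815 FPKM with a region (20 genes) and 589 without (61 genes). Myh9 reached its scores at 77.8, 62.9 and 62.2 FPKM, and Dst at 32.7, 28.9 and 29, both far below Hsp90ab1 at 2039, 2145 and 2117. Across non-histone genes, the Spearman correlation of best score with level was 0.14, 0.22, 0.29 and 0.23 in CLIP 1, CLIP 2, TAP 1 and TAP 2 (136, 159, 55 and 72 genes), and genes differ in length as well. Histone genes had a median of 20.4, 18.2 and 17.5 FPKM, but the RNA-seq selected poly(A) RNA, which canonical histone mRNA largely lacks, so these levels cannot be compared with those of other genes. The ESC markers Pou5f1, Sox2, Nanog, Zfp42, Esrrb, Klf4, Dppa5a and Tdgf1 were all at 1 FPKM or more (summed 2433 to 2617), and of 6 fibroblast feeder markers Thy1 alone was (summed 13.8 to 20.4), with Postn and Lum at 0.

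The level of these genes after DDX18 KD was compared in 3 genotypes, with fold changes on the log2(FPKM + 1) scale. Ddx18 itself was at 9.94 and 8.52 FPKM with KD against 84.6 and 89.1 in controls of ESCs, at 15.5 and 17.5 against 82.5 and 89.4 in EZH2 KO ESCs, and at 3.08 and 3.86 against 36.9 and 49.7 in p53 KO ESCs. In bulk RNA, fewer cells of a type and less RNA per cell cannot be told apart.

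The table of the ESC comparison lists 4769 genes, and in each of them the KD and control libraries do not overlap, so it was selected for difference and its counts are a description. It lists 129 of the genes with regions. Of these 37 were higher with KD and 89 lower by limma's test with Benjamini-Hochberg adjustment, where 55.2% of all 4695 genes tested were higher and 42.6% lower. The median change was -0.33 on the log2 scale, against 0.30 over all genes tested. After dividing each library by its median ratio to the others, the split was 26 higher and 94 lower, against 1850 and 2118 over all genes.

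The groups within that table were not tested against each other. Of cytoskeletal genes, 10 of 15 rose and 5 fell (8 and 5 after rescaling). Myh9 was at 173 and 164 FPKM with KD against 70.5 and 74.6 in controls (log2 change 1.20, SE 0.05), and Plec, the filament linker plectin, at 49.7 and 58.8 against 16.5 and 16.8 (1.64, SE 0.08). Fscn1, Tubb5 and Tuba1b were among those that fell. Tuba1b had a region in CLIP 2 alone, with a score of 11. All 16 listed ribosomal protein genes and all 14 listed histone genes fell, of 20 and 63 such genes with regions. Histone values here and below come from poly(A)-selected RNA, which canonical histone mRNA largely lacks. How reads matching several near-identical histone copies were assigned is not known. H2bc18 was at 2.31 and 2.24 FPKM with KD against 13.4 and 14.4 in controls (log2 change -2.18, SE 0.08) and H2ac4 at 4.75 and 4.59 against 9.11 and 8.52 (-0.79, SE 0.07). Aldoa, a glycolytic aldolase, was at 254 and 277 with KD against 804 and 799.9 in controls (-1.59, SE 0.06). Lars2 was at 1037 and 1238 with KD against 1849 and 1676 in controls (-0.63, SE 0.09). Of 9 listed pluripotency and ESC genes 1 rose and 7 fell, and of 9 translation factors 1 rose and 7 fell. After rescaling, 8 of the pluripotency and ESC genes and all 9 translation factors fell and 0 rose.

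In EZH2 KO ESCs, 254 genes with regions were tested, of which 12 rose and 24 fell (limma, Benjamini-Hochberg adjusted p under 0.05), where 6.30% of all 11773 genes tested rose and 2.18% fell. The median change was -0.11, against 0.09 over all genes, and after rescaling by the median ratio 11 rose and 51 fell, against 611 and 560 over all genes. Of 21 cytoskeletal genes 7 rose, among them Plec, Myh9, Sptan1 and Dst, and Fscn1, Tubb5 and Tuba1b fell, 7 and 3 after rescaling as well. Myh9 was at 156 and 171 FPKM with KD against 85.8 and 87.5 in controls (log2 change 0.91, SE 0.09, limma adjusted p = 0.0074). Plec was at 39.4 and 38.7 against 18 and 18.3 (1.07, SE 0.11, limma adjusted p = 0.0068). Both encode large proteins that link or move filaments, and their KD and control libraries did not overlap.

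Among histone genes of EZH2 KO ESCs, H2bc11, H2bc22, H2bc7, H2ax and H3c11 fell, 5 of the 60 tested. H2bc11 was at 5.59 and 3.97 FPKM with KD against 13 and 14.2 in controls (log2 change -1.35, SE 0.19, limma adjusted p = 0.015), and H2bc22 at 8.39 and 8.98 against 21.9 and 14.7 (-0.97, SE 0.20, limma adjusted p = 0.041). H2ax was at 678 and 734 FPKM with KD against 1258 and 1145 (-0.77, SE 0.10, limma adjusted p = 0.012). Ribosomal protein genes had 1 call of 20, Rps9, which fell. Of 16 pluripotency and ESC genes 2 fell, Fgf4, a growth factor that primes ESCs for differentiation, and Igfbp2, a binder of insulin-like growth factors. Ldha, the lactate dehydrogenase, fell to 159 and 143 FPKM with KD, against 375 and 403 in controls (-1.36, SE 0.10, limma adjusted p = 0.0037). Igfbp2 and Ldha each had 1 region in 1 library, CLIP 1 and TAP 1, with a score of 11. These calls rest on 4 libraries. With any library left out, which leaves 1 library in a group, they drop, as do the calls over all genes. Without a filter on low values the calls among genes with regions drop to 3 of 255, where 56 of all 20232 genes were called.

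In p53 KO ESCs, 3 of 254 genes rose and 3 fell (limma, Benjamini-Hochberg adjusted p under 0.05), where 2.63% of all 11636 genes tested rose and 0.636% fell. The median change was 0.06, against 0.34 over all genes, so the whole table shifted upward, and after rescaling by the median ratio 0 rose and 7 fell, against 31 and 120 over all genes. H2ac20 fell to 3.61 and 2.31 FPKM with KD, against 10.8 and 11.7 in controls (log2 change -1.65, SE 0.27, limma adjusted p = 0.048), and Hsp90b1, the endoplasmic reticulum Hsp90, to 50 and 59, against 128 and 126 (-1.21, SE 0.19, limma adjusted p = 0.048). Ldha fell as well, and Brd1 and Ulk1 were among the 3 that rose. Each had 1 region in 1 library, Ldha in TAP 1 (score 11), Brd1 and Ulk1 in CLIP 1 (16 and 11). No cytoskeletal gene of 21 and no ribosomal protein gene of 20 was called; Myh9 was at 88.9 and 103 FPKM with KD against 75.7 and 61.8 in controls (0.48, SE 0.20, limma adjusted p = 0.17). The count is 0 with a pseudocount of 0.1 or without a filter, and 0 over all genes as well. In these fits 60 and 55 genes with regions had an unadjusted limma p under 0.05, against 59 in the fit as given. Over all genes it was 3536 of 11636 and 4009 of 20901, against 3628 of 11636. With a library left out, which leaves 1 library in a group, the count moved in both directions, and so did the count over all genes.

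**Figure D5:**
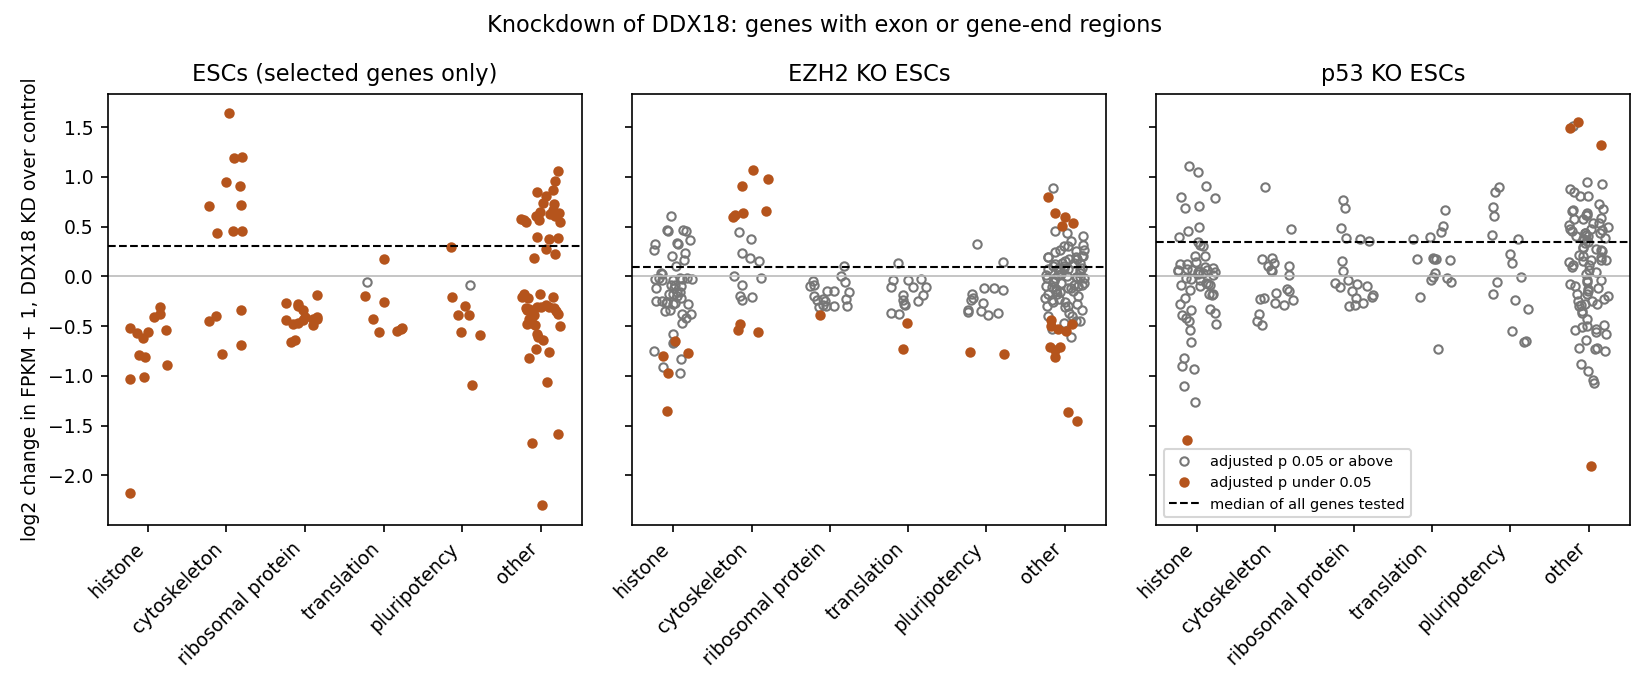
Log2 change with DDX18 KD (KD over control, log2(FPKM + 1) scale) of the genes with regions, by gene group and genotype. Cytoskeletal genes reach 1.64 (Plec) in ESCs and 1.07 in EZH2 KO ESCs, and the listed histone and ribosomal protein genes lie below 0 in ESCs. Filled points have a limma adjusted p under 0.05, open points do not, and the dashed line is the median of all genes tested (0.30, 0.09 and 0.34 in ESCs, EZH2 KO and p53 KO).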

How the data were processed

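The regions were deposited by the authors with a score per region and an annotation made with HOMER's annotatePeaks on mm10, per the file headers. The region caller, the meaning of the score and the mapping settings are not given in the sources used here. The RNA-seq values are FPKM as deposited by the authors. The submitters' processing notes name TopHat2 version 2.0.11, CASAVA and the builds mm9 and mm10. FPKM keep no depth, so the depth of these libraries is unknown.

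From these, each region was given the gene it overlaps by at least 1 base in RefSeq (GRCm38.p6), which also supplied the sequences. FPKM were tested as log2(FPKM + 1) with limma version 3.58.1 (trend, R 4.3.3), for genes at 1 FPKM or more in at least 2 libraries, with Benjamini-Hochberg adjusted p under 0.05. Fits on simulated data with known changes were checked first. Shares of 2 CLIP against 2 TAP libraries were compared with exact permutation tests. Gene lists and members were chosen with earlier results of these data known. Named genes are the 20 most recurrent with the highest ranked scores, the 5 highest regions per library, the 5 genes with most regions, and the 4 largest called changes per comparison among genes found in at least 2 libraries. Further genes were named after their values were seen, and some genes that the rule names are not reported here. Alternatives were another pseudocount, filters, scaling, the replicate block and leaving out libraries. Another 4 sample columns in the tables belong to groups not compared here and were not used.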

Additional observations from a re-analysis of the deposited data

Results flagged for a closer look

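For 6 genes with regions, every KD library of p53 KO ESCs lay on the opposite side of its controls from the KD libraries of another genotype, and the difference between genotypes was not tested. Between EZH2 KO and p53 KO ESCs, 35 of 254 genes with regions (13.8%) and 1059 of all 10866 genes tested in both (9.75%) lay apart from their controls in opposite directions, and the genes named here are those that were called in a comparison or named above. The log2 changes in p53 KO ESCs were -0.18 for Cad (0.63 in ESCs, 0.60 in EZH2 KO ESCs), 0.37 for Eif4b (-0.55 and -0.73), 0.11 for Dhx8 (-0.48 and -0.50) and 0.50 for H2ac4 (-0.79 and -0.04). For Apoe and H2ac10, which the ESC table does not list, they were -0.25 (0.51 in EZH2 KO ESCs) and 1.05 (-0.18 in EZH2 KO ESCs). Eif4b had regions in CLIP 2 alone. The median of all genes tested was 0.34 in p53 KO ESCs, 0.09 in EZH2 KO ESCs and 0.30 in ESCs.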

How the results depend on the processing

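Taking only the higher-scoring part of the regions of each library left 524 regions and 105 genes in at least 2 libraries, against 1015 and 189. It also turned the CLIP minus TAP difference of 5' UTR shares to -0.857 points and the length difference to 0.17 on the log2 scale. The 3' UTR difference turned to 0.122 points with each gene counted once and ranged from -1.03 to 0.00776 with libraries left out. In untreated ESCs, the genes' median level exceeded that of all genes by 3.07 on the log2 scale, by 3.22 with a pseudocount of 0.1, by 6.08 without a filter and by 2.89 to 2.92 with a library left out. Calls in EZH2 KO ESCs went to 3 without a filter and 62 after rescaling, and ranged from 1 to 23 with a library left out. Calls in p53 KO ESCs went to 2 for genes found in at least 2 libraries. They went to 0 with a pseudocount of 0.1 or without a filter, as over all genes. With a minimum of 5 FPKM they went to 18 of 245, where 868 of all 7153 genes were called. With a library left out they moved in both directions, as over all genes. The cause was not tested. In ESCs, with the selected table, 126 of 129 genes were called, and 120 of 129 after rescaling. Over all genes it was 4595 of 4695 and 3968 of 4655. For genes found in at least 2 libraries it was 87 of 89. Of 37 genes tracked in EZH2 KO ESCs, Ddx18 and Ldha were called in every alternative, and of 7 in p53 KO ESCs 0 were. Ldha had its region in TAP 1 alone.

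Same-numbered libraries correlated at -0.01, -0.05 and -0.26 over 2 pairs in ESCs, EZH2 KO and p53 KO, so the numbers do not show a pairing. With a replicate block the calls were 126, 26 and 0, against 4550, 898 and 0 over all genes. In p53 KO ESCs 54 genes with regions, and 2880 of all 11636, had an unadjusted limma p under 0.05. With the pairs crossed, an alternative added after the data were seen, p53 KO ESCs had 18 calls, and 1149 over all genes against 380.

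Most region scores are small counts, the methods have 2 libraries each, and no purification control was analysed here.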
